A study of Homo sapiens with 54 samples.

Results

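Chromatin immunoprecipitation and sequencing (ChIP-seq) of the RNA polymerase III subunit POLR3G gave 12068 vehicle regions at acetylated ends of protein-coding genes. None of them met a called vehicle region of the largest polymerase III subunit, POLR3A. These regions are 20.7% of the 58423 POLR3G regions called on chromosomes 1 to 22 and X in vehicle-treated cells. A region was taken when its distance to the start or the other end of a protein-coding gene was at most 1 kb in the RefSeq annotation of GRCh38.p14. It also had to share at least 1 bp with a vehicle region of acetylated lysine 27 of histone H3 (H3K27Ac) and none with a vehicle POLR3A region. The regions were thus selected on the vehicle POLR3G, H3K27Ac and POLR3A calls and on the distance to gene ends, and their values in those lists are given as a description only.

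The cells were T47D, an established human breast cancer line that carries the estrogen and progesterone receptors. They were given ethanol vehicle or R5020, a synthetic progestin, for 1 h, with no genetic change or second agent named in the labels. The series holds 54 libraries in 18 groups of 3: 8 antibodies and an input control, each with both treatments. Nothing in the labels says whether the 3 libraries of a group came from separate cultures. The antibodies were against POLR3A, POLR3C, POLR3G, POLR3GL, Maf1, Brf1, the progesterone receptor (PR) and H3K27Ac, and each antibody and treatment had 1 peak list. The titles of 4 libraries say R5020 while their treatment tags say ethanol: 2 of POLR3C, 1 of POLR3G and 1 of POLR3GL. The R5020 lists of these 3 subunits rest on the titles.

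RNA polymerase III transcribes tRNA genes, 5S ribosomal RNA and other short noncoding RNAs, while protein-coding genes are transcribed by RNA polymerase II. POLR3G and POLR3GL are paralogs, and an assembled polymerase III holds 1 or the other, while POLR3A forms the catalytic core and POLR3C binds POLR3G or POLR3GL in a subcomplex. Brf1 belongs to TFIIIB, the factor that brings the polymerase to most of its genes, and Maf1 represses the polymerase by binding it. H3K27Ac marks active promoters and enhancers, and PR is the hormone-activated transcription factor to which R5020 binds.

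With 1 list for each antibody and treatment there was no replicate error, and no p-value is given. Shares carry 95% Wilson intervals and differences of shares carry Newcombe intervals. They reflect the number of regions or genes counted and nothing else, and neighbouring regions are not independent. List sizes differed widely between treatments for PR (6662 vehicle and 173115 R5020 regions) and Maf1 (3048 and 22638), and sequencing depth is unknown. The labelled cell type was checked against vehicle H3K27Ac: 14 of 14 luminal marker genes, ESR1, PGR and GATA3 among them, had an acetylated end. Acetylated ends were found at 4 of 10 basal or mesenchymal markers, at 3 of 10 markers of other lineages and at 3 of 389 olfactory receptor genes.

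Promoter sequences from RefSeq (GRCh38.p14) are shown for the 6 genes whose start lay at the regions with the highest -log10 q, to let the composition of these promoters be read beside the motif counts given further on. Each runs 5′ to 3′ on the strand of the gene, from 250 bases before to 50 bases after the gene start. Capitals mark matches on either strand to the GC box (GGGCGG), the CCAAT box, the E-box (CACGTG), the NRF1 core (GCGCATGC) and the BANP core (TCTCGCGA).
FAM228B, + strand, chr2:24076583-24076882: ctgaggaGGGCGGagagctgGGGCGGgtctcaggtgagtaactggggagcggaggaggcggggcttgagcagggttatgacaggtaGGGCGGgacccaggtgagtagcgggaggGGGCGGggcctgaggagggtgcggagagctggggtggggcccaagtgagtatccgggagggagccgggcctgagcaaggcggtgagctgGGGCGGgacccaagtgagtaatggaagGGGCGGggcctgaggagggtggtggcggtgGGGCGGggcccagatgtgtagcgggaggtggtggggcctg
HEXIM1, + strand, chr17:45148225-45148524: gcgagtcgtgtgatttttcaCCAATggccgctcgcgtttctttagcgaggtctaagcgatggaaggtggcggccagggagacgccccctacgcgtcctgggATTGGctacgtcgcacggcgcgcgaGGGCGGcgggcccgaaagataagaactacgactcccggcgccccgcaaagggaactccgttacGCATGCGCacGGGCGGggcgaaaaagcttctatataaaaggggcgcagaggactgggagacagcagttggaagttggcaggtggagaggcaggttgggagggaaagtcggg
ZNF446, + strand, chr19:58476102-58476401: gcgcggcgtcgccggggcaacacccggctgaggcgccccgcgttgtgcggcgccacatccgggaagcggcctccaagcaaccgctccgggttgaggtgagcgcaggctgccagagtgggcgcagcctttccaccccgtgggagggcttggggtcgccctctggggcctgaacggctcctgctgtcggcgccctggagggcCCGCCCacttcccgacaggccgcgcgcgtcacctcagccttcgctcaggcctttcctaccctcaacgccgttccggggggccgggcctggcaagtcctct
PHPT1, + strand, chr9:136849159-136849458: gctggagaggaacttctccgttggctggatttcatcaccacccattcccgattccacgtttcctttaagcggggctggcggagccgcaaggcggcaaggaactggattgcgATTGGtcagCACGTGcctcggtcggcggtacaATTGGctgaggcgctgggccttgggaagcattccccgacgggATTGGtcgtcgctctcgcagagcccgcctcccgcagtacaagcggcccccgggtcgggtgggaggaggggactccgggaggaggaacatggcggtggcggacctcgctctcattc
ARHGDIA, - strand, chr17:81870948-81871247: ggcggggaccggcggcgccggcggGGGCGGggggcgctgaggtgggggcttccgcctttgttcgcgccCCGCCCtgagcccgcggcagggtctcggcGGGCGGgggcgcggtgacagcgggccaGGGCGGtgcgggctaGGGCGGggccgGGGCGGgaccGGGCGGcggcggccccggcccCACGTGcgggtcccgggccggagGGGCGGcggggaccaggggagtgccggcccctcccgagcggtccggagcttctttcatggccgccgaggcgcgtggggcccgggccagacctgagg
RPL12, - strand, chr9:127451357-127451656: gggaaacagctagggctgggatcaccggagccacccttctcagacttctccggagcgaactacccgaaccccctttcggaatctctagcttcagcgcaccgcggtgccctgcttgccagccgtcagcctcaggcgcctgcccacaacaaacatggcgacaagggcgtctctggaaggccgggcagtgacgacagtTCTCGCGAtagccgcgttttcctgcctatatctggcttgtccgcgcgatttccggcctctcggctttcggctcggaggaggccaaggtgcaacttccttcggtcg

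The FAM228B window held 7 GC boxes and the ARHGDIA window 8, with a GC content of 70.7% and 83.7%. HEXIM1 had 2 CCAAT boxes, 2 GC boxes and an NRF1 core, whereas PHPT1 had 3 CCAAT boxes and an E-box but no GC box. RPL12 had none of these boxes and 1 BANP core, and ZNF446 had 1 GC box. The POLR3G summit, the highest point of the region, lay 42 bp from the FAM228B start, 84 bp from that of HEXIM1, 145 bp from that of PHPT1 and 279 bp from that of ZNF446. At ARHGDIA and RPL12 the summit lay 3078 and 4855 bp from the printed start, within regions of 8451 and 11036 bp. For these 2 genes the window shows the promoter inside the region and not the sequence under its summit.

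The strongest region by -log10 q, chr2:24073991-24082725, spans ends of FAM228B, SF3B6, which encodes a subunit of the spliceosomal SF3b complex, and TP53I3, a p53-inducible oxidoreductase gene. Its vehicle POLR3G fold enrichment, the authors' deposited ratio of signal over background, was 14.2, with a -log10 q of 80.5. Regions of Maf1, PR and POLR3C overlapped it in both treatments, and POLR3GL and Brf1 did so with R5020. Folds of 33.9 (Maf1, vehicle), 44.2 (Maf1, R5020), 9.49 (PR, vehicle) and 37.0 (PR, R5020) were listed there.

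ZNF469 and CEP72 came next. The region chr16:88423816-88446081 at ZNF469 had a POLR3G fold of 10.8, and chr5:668333-683453 at CEP72, a centrosomal protein gene, had 7.95. Both carried Maf1 in both treatments and PR with R5020 alone. At chr17:81866044-81874494, ARHGDIA had a fold of 8.84 and carried Maf1 and PR in both treatments. HEXIM1, whose protein binds 7SK RNA and holds back the elongation factor P-TEFb, lay at chr17:45146542-45152349 with a fold of 7.44. It carried POLR3C, Maf1 and PR in both treatments.

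The other regions among the 12 highest were at ZNF34 and RPL8, RPL12 with ZNF79 and LRSAM1 (chr9:127442059-127453094), SCRIB and PUF60, ZNF446 and ZNF324 (chr19:58470198-58479895), PHPT1 with AJM1, MAMDC4 and RABL6 (chr9:136837223-136855943), ZNF7, and ESRP2 (chr16:68233254-68238793). Their folds ran from 5.68 at SCRIB and PUF60 to 7.99 at ZNF446 and ZNF324. All 12 were wide, from 3854 to 22266 bp, and all 12 overlapped regions of the R5020 lists of POLR3G, H3K27Ac, PR and Maf1. Genes of C2H2 zinc finger proteins, a large family of DNA-binding factors, stood at 5 of the 12, and ribosomal protein genes at 2. The share of all regions of this class at such genes was not counted, and wide regions can span several genes. No enrichment is therefore read from these counts. Among acetylated genes, ZNF genes had a region of this class at 62.2%, against 65.5% of all acetylated genes.

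Over all 12068 regions the fold was modest. Its lowest value was 1.71, the quartiles were 2.75, 3.16 and 3.68, and the highest was 14.2. The median width was 590 bp, with quartiles of 346 and 1140 bp, and 56 regions exceeded 10 kb. Acetylated POLR3G regions away from gene ends (19038) had a median fold of 2.80 and a median width of 405 bp. Regions at gene ends without H3K27Ac or POLR3A (3553) had 2.80 and 368 bp. The 79 regions at acetylated ends that did share sequence with POLR3A had a median fold of 6.07 and a width of 1723 bp. The regions described here thus made up 55.2% of the tenth of the list with the highest fold, although their typical fold was far below that at POLR3A sites.

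Regions at the edges of the rule were close in fold on either side. Those in the last 100 bp inside the 1 kb limit (470) had a median of 2.93, and acetylated ones in the next 100 bp outside it (421) had 2.81. Regions sharing 1 to 100 bp with H3K27Ac (407) had 2.83, and those within 100 bp of an acetylated region but not touching it (260) had 2.81. Most overlaps were not marginal: 63.6% of the regions lay wholly inside H3K27Ac regions, and 84.0% had their summit in one.

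POLR3G lay at the start of the gene far more often than at its other end. The promoter table gave the strand of a gene for 10003 of the regions, and 8479 of these (84.8%, interval 84.0 to 85.5%) lay within 1 kb of a gene start. Another 1524 lay at the other end alone. Among regions at gene ends without H3K27Ac, 632 of 2878 (22.0%) were at a start. The rule used acetylation and gene ends, and acetylated ends are themselves mostly starts: 10645 starts and 3123 other ends of the 15812 genes with a strand were acetylated. Counted over these ends, 65.8% of acetylated starts and 60.3% of acetylated other ends had a POLR3G region of this class. Starts of genes on both strands lay within 1 kb of 13.3% of the regions at starts.

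Within starts, POLR3G summits gathered at the start site itself. Their median position was 17 bp downstream, with quartiles at -196 and 449 bp, and 24.3% lay within 100 bp of the start. Only 6.65% of POLR3G summits at starts without H3K27Ac did so, with a median of -194 bp. H3K27Ac summits at gene starts were displaced: their median was 182 bp downstream, 70.2% were downstream and 4.58% lay within 100 bp. In the histogram of summit positions, POLR3G is highest at the start, where H3K27Ac has a local dip between its upstream and downstream summits.

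**Figure D1:**
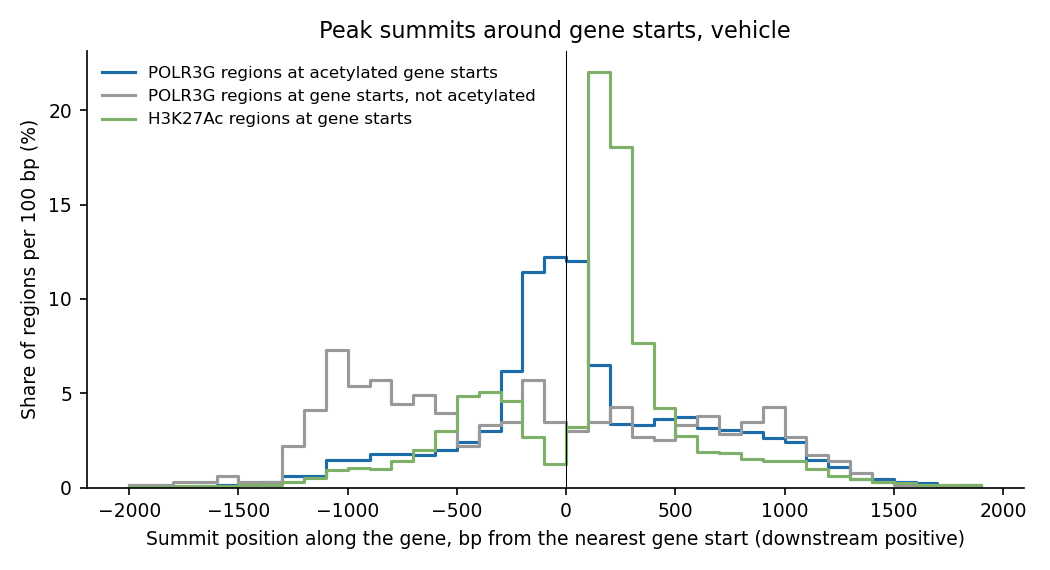
Share of peak summits per 100 bp (vertical axis, %) against the summit's position along the gene, in bp from the nearest start (horizontal axis), for vehicle POLR3G regions at acetylated starts (blue, 8479), POLR3G regions at starts without H3K27Ac (grey, 632) and H3K27Ac regions at starts (green, 11940). The blue curve is highest around 0, where 24.3% of its summits lie within 100 bp, while the green curve has its main peak downstream and a dip at the start.

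In all, 8920 of 19821 protein-coding genes (45%) had a POLR3G region of this class at an end. An acetylated end was found at 13599 genes (68.6%), and 8905 of these (65.5%) had such a region. POLR3A had a region at an end of 102 genes. One POLR3G region of this class stood at 4822 genes, 2 stood at 2683, and 3 or more at 1415, with at most 7. Conversely, 9371 regions lay near 1 gene, 2508 near 2 and 189 near 3 or more.

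Genes of the RNA polymerase III subunits were nearly all among them. Of 18 polymerase III subunit genes, 17 had a region of this class (94.4%, interval 74.2 to 99.0%, against 45% of all genes). All 18 had an acetylated end, and 65.5% of all acetylated genes had a region. The exception was POLR3E, whose only POLR3G region overlapped POLR3A. The highest by -log10 q were POLR2H, a subunit shared by all 3 nuclear polymerases, with a fold of 4.98, POLR1C, shared by polymerases I and III, with 4.94, and POLR2E, also shared by all 3, with 5.06. POLR3C, one of the proteins mapped in the series, had 4.54 at its own gene.

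Initiation factors and the repressor gave 13 of 17 genes, all 17 of them acetylated. This share (76.5%, interval 52.7 to 90.4%) did not differ from the 65.5% of acetylated genes beyond its interval. MAF1, which encodes the repressor, had a POLR3G fold of 4.13. SNAPC genes, for the complex that binds promoters of small nuclear RNA genes, were the highest by -log10 q: SNAPC4 (5.22), SNAPC5 (5.89) and SNAPC2 (5.59). Acetylated ends without POLR3G were those of GTF3A, the 5S-specific factor TFIIIA, and of the TFIIIC subunits GTF3C1, GTF3C3 and GTF3C6. All 7 genes specific to RNA polymerase II on the list had a region, led by POLR2A, the largest subunit, with a fold of 7.59 at chr17:7483124-7485636.

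Translation genes also had shares above the 45% of all genes and the 65.5% of acetylated genes. Cytosolic ribosomal protein genes had a region at 77 of 84, cytosolic aminoacyl-tRNA synthetase genes, whose products charge the tRNAs that polymerase III makes, at 19 of 20, and translation initiation factor genes at 48 of 55. Over acetylated genes alone the intervals were 86.5 to 97.4%, 76.4 to 99.1% and 79.7 to 95.9%. The synthetase gene with the highest -log10 q, MARS1, had a fold of 6.53. Among ribosomal protein genes RPS18 had a fold of 7.45 and RPL41 6.02. RPL22, RPL36A, RPL39, RPS4X and RPS6 had an acetylated end and no POLR3G region.

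The other housekeeping groups had a region as follows: splicing factors at 45 of 54, mitochondrial ribosomal proteins at 61 of 77, replication-dependent histones at 54 of 69, oxidative phosphorylation subunits at 62 of 83, proteasome subunits at 29 of 39 and mitochondrial synthetases at 12 of 17. ZNF zinc finger genes had a region at 268 of 509 (52.7%), near the share of all genes, although several were among the strongest. Counted over acetylated genes alone, ZNF genes (62.2%) were close to all acetylated genes (65.5%). Cytosolic ribosomal protein genes (93.9%, interval 86.5 to 97.4%) lay above. Histones (91.5%), splicing factors (84.9%), proteasome subunits (82.9%), oxidative phosphorylation subunits (82.7%) and mitochondrial ribosomal proteins (80.3%) also had intervals above 65.5%. The interval of the mitochondrial synthetases (50.5 to 89.8%) held 65.5%. Histone genes stand in clusters, so that H2AC18, H3C14 and H4C15 shared 1 region with a fold of 6.65.

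Luminal marker genes had a region at 12 of 14, above the 45% of all genes (interval 60.1 to 96.0%) but with an interval that holds the 65.5% of acetylated genes. ERBB3 had a fold of 6.32, KRT19 5.99, GATA3 5.67 and PGR 5.19. PGR encodes the progesterone receptor, and its region covered 12510 bp. ESR1 had an acetylated end without POLR3G. Basal or mesenchymal markers had 1 of 10, markers of other lineages 2 of 10 and olfactory receptors 0 of 389. Progestin-responsive genes had a region at 8 of 14 (57.1%, interval 32.6 to 78.6%), near the share of all genes, and at 72.7% of the acetylated ones, near the 65.5% of all acetylated genes. The named ones, with their folds, were CCND1 (4.74), DUSP1 (4.13), FKBP5 (3.64), ELF5 (2.97), HSD11B2 (3.33) and TIPARP (2.67). KLF9, TSC22D3 and WNT4 were acetylated without POLR3G.

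**Figure D2:**
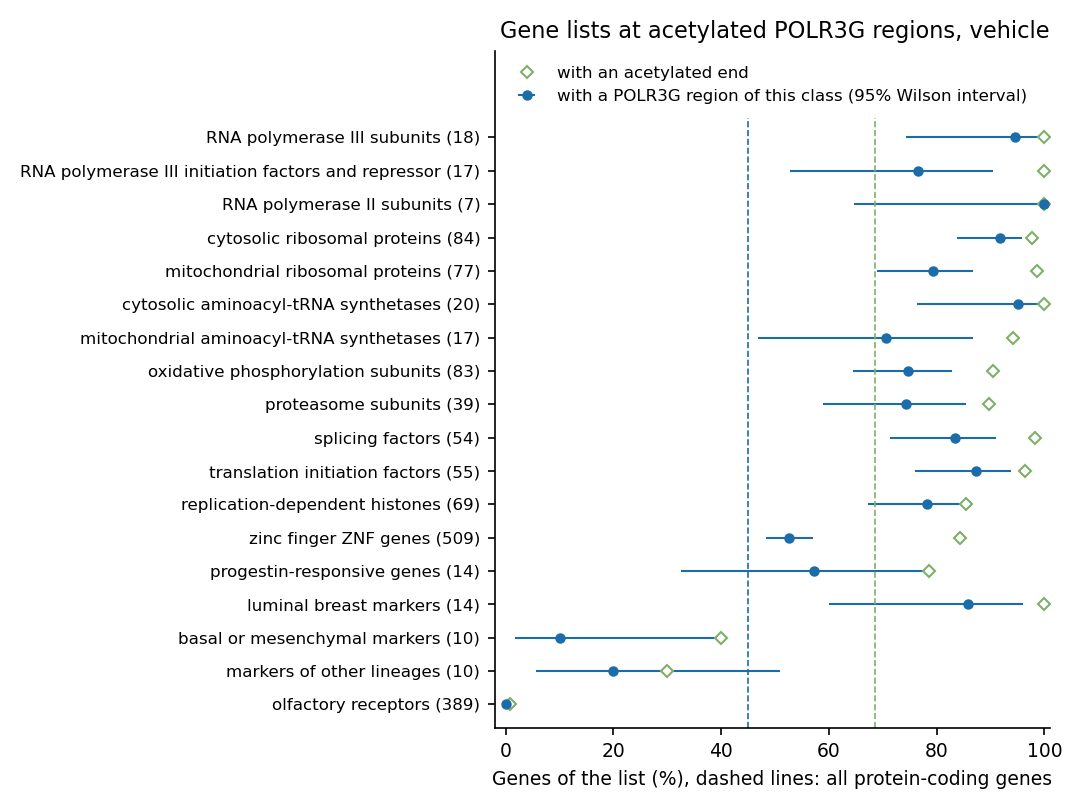
Share of the genes of each list (horizontal axis, %) that had a POLR3G region of this class at an end (blue points, with 95% Wilson intervals) or an acetylated end (green diamonds), with the number of genes in brackets. Dashed lines give the shares over all protein-coding genes, 45% and 68.6%. Blue points of the polymerase II and III, translation, splicing, histone and other housekeeping lists lie to the right of both lines. The blue point of the luminal markers does so too.

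Classical polymerase III genes are mostly POLR3A sites, which the rule removed, so their absence here is a description. None of 429 tRNA genes overlapped a region of this class, whereas 213 overlapped any vehicle POLR3G region and 362 overlapped POLR3A. Only 1 tRNA gene overlapped a POLR3G region that lacked POLR3A and could have been taken by the rule. Y RNA, vault RNA and 5S genes (4, 4 and 17 in the table) had 0 overlaps. Of 149 small nuclear RNA genes 7 overlapped, among them RNU4-1, RNU4-2, RNU2-2, RNU11 and RNU12, spliceosomal RNA genes that RNA polymerase II transcribes.

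The other polymerase III proteins were rarely called at these regions. Vehicle POLR3C was at 179 (1.48%, interval 1.28 to 1.71%) against 0.669% of all vehicle POLR3G regions, and R5020 POLR3C was at 189 (1.57%) against 0.681%. POLR3GL, the paralog, was at 31 with vehicle (0.257%, against 0.243% of all) and 17 with R5020 (0.141%, against 0.195%). Vehicle Brf1 was at 11 (0.0912%, against 0.399%) and R5020 Brf1 at 117 (0.970%, against 0.84%). The shares of all POLR3G regions include those with POLR3A, which the rule removed. At acetylated regions away from gene ends, also without POLR3A, Brf1 was at 0.0420% with vehicle and 0.662% with R5020. R5020 POLR3A was at 2 (0.0166%, against 0.491%). The rule did not use this list, but R5020 POLR3A was at 91.1% of the 79 regions at acetylated ends with vehicle POLR3A. The rule had removed those, so the low count of R5020 POLR3A is a description only.

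At the 79 regions at acetylated ends with POLR3A, by contrast, POLR3C was at 48.1% with vehicle, and Brf1 at 68.4% with vehicle and 82.3% with R5020. Regions without POLR3A minus regions with it gave -46.6 points for vehicle POLR3C (-57.5 to -35.9) and -68.3 points for vehicle Brf1 (-77.5 to -57.4). Counted from its own short list, the POLR3C share was larger. Of its 666 vehicle regions, 180 (27.0%, interval 23.8 to 30.5%) shared sequence with the 12068 regions, and 417 with any vehicle POLR3G region. Counted in the same way, the share was 2.97% for vehicle Brf1 and 8.51% for vehicle POLR3GL. It was higher for vehicle PR, at 34.9%, and for vehicle Maf1, at 55.0%. Of the 179 regions with vehicle POLR3C, 155 also had it in the R5020 list, which includes the 2 libraries with conflicting tags.

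The few regions with vehicle Brf1 included SMARCD2, a SWI/SNF remodelling subunit (chr17:63842565-63843384), POLR2A, and SIRT4, a mitochondrial sirtuin (chr12:120289797-120293579). At SMARCD2 Brf1 was listed with a fold of 3.42 with vehicle and 8.17 with R5020, values of separate lists that are not compared. Neither SMARCD2 nor SIRT4 had vehicle POLR3C, and POLR2A had both proteins.

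The repressor Maf1, which the rule did not use, was called at a larger share of these regions than of acetylated POLR3G regions away from gene ends. Vehicle Maf1 was at 1436 regions (11.9%, interval 11.3 to 12.5%), against 3.71% of all POLR3G regions. It was at 3.39% of acetylated regions away from gene ends, a difference of 8.51 points (7.88 to 9.15), and at 0.647% of unacetylated ends. Seen from the Maf1 list, 1676 of its 3048 vehicle regions (55.0%, interval 53.2 to 56.7%) shared sequence with these 12068 POLR3G regions, which together cover 12.5 Mb. The share at ends with POLR3A was 19.0%, and its difference from 11.9% had an interval that includes 0 (-17.1 to 0.0654 points).

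With R5020, Maf1 was at 5360 regions (44.4%, interval 43.5 to 45.3%), against 16% of all POLR3G regions. It was more frequent at the 79 regions at acetylated ends with POLR3A, at 74.7%, a difference of -30.3 points (-38.6 to -19.7). Of the 1436 regions with vehicle Maf1, 1409 also had it with R5020, and 3951 had it with R5020 alone. The highest of the latter were SLC39A4, a zinc transporter gene, ESRRA with CATSPERZ (chr11:64303885-64308219), the gene of the orphan receptor ERR alpha, and FNDC11. The R5020 Maf1 list was 22638 regions long. With only its 3048 highest regions by -log10 q, as many as in the vehicle list, the R5020 share was 4.21%, below the vehicle share of 11.9%, so the direction between treatments depended on list length.

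PR was found at many of the same regions. Vehicle PR was at 2101 regions (17.4%, interval 16.7 to 18.1%), against 6.86% of all POLR3G regions, 9.52% of acetylated regions away from ends and 3 of 3553 regions at unacetylated ends. With R5020 it was at 7715 (63.9%, interval 63.1 to 64.8%), against 30.6% of all, 41.9% away from ends and 8.16% at unacetylated ends. PR was in both lists at 2052 regions, in the R5020 list alone at 5663 and in the vehicle list alone at 49. The R5020 list was 173115 regions long, and its 6662 highest regions, as many as with vehicle, met 4.89% of the POLR3G regions of this class. As for Maf1, the order of the treatments turned when the lists were cut to equal numbers.

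The ordering of the classes was less dependent on region width than their levels. Regions of this class are wider than the acetylated regions away from ends, 590 against 405 bp, and a wide region meets others more easily. When only the POLR3G summit was asked to lie in the other region, R5020 PR was at 44.9% and 28.7% of the 2 classes, R5020 Maf1 at 29.2% and 11.4%, vehicle PR at 10.4% and 6.42%, and vehicle Maf1 at 6.78% and 2.00%. Each interval of this class lay above that of the other. Where regions met, the median distance from the POLR3G summit to the nearest summit of the other list was 135 bp for vehicle Maf1, 128 bp for vehicle PR, 141 bp for vehicle POLR3C and 353 bp for H3K27Ac. Overlap itself limits these distances, and no expected distance is given. Vehicle H3K27Ac regions are also wider, with a median of 475 bp against 267 bp for Maf1 and 292 bp for PR.

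**Figure D3:**
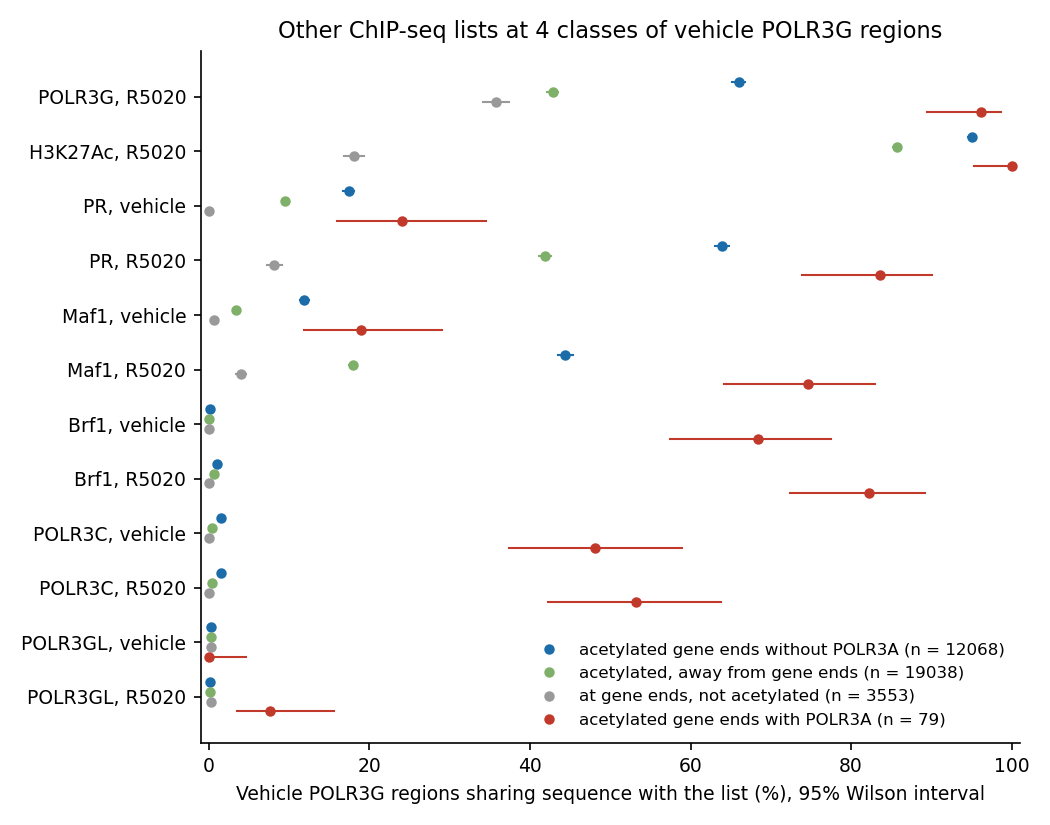
Share of vehicle POLR3G regions (horizontal axis, %, with 95% Wilson intervals) that shared at least 1 bp with each other list (rows), for 4 classes of POLR3G regions (colours). Regions at acetylated ends without POLR3A (blue) lie above acetylated regions away from ends (green) for POLR3G, PR and Maf1. They lie below the 79 regions at ends with POLR3A (red) for R5020 POLR3G, PR and Maf1. Brf1 and POLR3C are frequent in the red class and rare in the other 3 classes.

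Maf1 was more frequent at regions with PR than at those without. Vehicle Maf1 was at 850 of 2101 regions with vehicle PR (40.5%) and at 586 of 9967 without it (5.88%), a difference of 34.6 points (32.4 to 36.7). With R5020 the shares were 62.4% of 7715 and 12.5% of 4353, with an interval of 48.5 to 51.4 points for the difference. The R5020 difference was also present within each quartile group of region width, with differences of 34.3, 40.9, 48.9 and 49.6 points from the narrowest to the widest. Among the progestin-responsive genes, the FKBP5 region, at a gene for a steroid receptor co-chaperone, carried PR and Maf1 in both treatments. CCND1, the cyclin D1 gene, carried both with R5020 alone.

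At the level of genes, 83% of the 8920 genes with a region had R5020 PR on it and 65.2% had R5020 Maf1. The gene groups were near these shares for PR: 67 of 77 ribosomal protein genes, 17 of 19 cytosolic synthetase genes, 15 of 17 polymerase III subunit genes and 230 of 268 ZNF genes. For Maf1 the count was 68 of 77 (88.3%) at ribosomal protein genes, 158 of 268 (59.0%) at ZNF genes, 36 of 62 (58.1%) at oxidative phosphorylation genes and 7 of 12 (58.3%) at mitochondrial synthetase genes. Differences between lists were not tested. All 8 progestin-responsive genes with a region had R5020 PR on it.

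POLR3G itself was called again at 7965 of the 12068 regions with R5020 (66.0%, interval 65.2 to 66.8%), against 39.2% of all vehicle POLR3G regions. The share was 42.8% for acetylated regions away from ends, lower by 23.2 points (22.1 to 24.3), and 35.8% at unacetylated ends. It was 96.2% at acetylated ends with POLR3A. The R5020 POLR3G list includes the library whose labels disagree. H3K27Ac was called again at 11465 of the 12068 regions (interval 94.6 to 95.4%), against 85.7% of acetylated regions away from ends, a difference of 9.34 points (8.71 to 9.97). It was called at 100% of the 79 regions at acetylated ends with POLR3A. The share over all POLR3G regions, 55.3%, is no like comparison, since the rule had taken only acetylated ones.

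The highest regions not called again were at PHLPP1, a protein phosphatase gene (chr18:62715007-62715659, fold 5.46), RAD9A, of the DNA damage checkpoint clamp (chr11:67391087-67393147, 4.96), and MED11, a Mediator subunit gene (chr17:4730848-4731723, 5.32). All 3 had R5020 H3K27Ac and R5020 PR. The highest whose acetylation was not called again were at SURF2 and SURF4 (chr9:133360109-133363882), PPIA, the cyclophilin A gene (chr7:44802297-44805711), and NOP14, a ribosome assembly gene (chr4:2938684-2940894). These 3 had POLR3G and Maf1 with R5020 and no R5020 PR region.

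Applied to the R5020 lists, the same rule gave 11156 of 46874 POLR3G regions (23.8%, against 20.7% with vehicle). Of these, 8701 (78.0%) shared sequence with a vehicle region of this class, and 7447 of the vehicle regions (61.7%) shared sequence with one of them. R5020 PR was at 63.3% and R5020 Maf1 at 44.7% of the R5020 set. These shares differ little from the 63.9% and 44.4% at the vehicle set.

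Overlap followed the POLR3G fold. From the lowest to the highest quartile group of the 12068 regions by fold, POLR3G was called again at 47.6%, 52.9%, 71.2% and 92.3%. R5020 PR was at 49.8%, 56.0%, 66.9% and 83.0%, and R5020 Maf1 at 25.2%, 31.5%, 46.9% and 74.0%. Vehicle PR was at 7.06% of the lowest quartile group and 36.5% of the highest, and vehicle Maf1 at 3.65% and 29.5%. Width ran with fold, and quartile groups by width gave 34.9% and 96.5% for POLR3G and 46.8% and 80.8% for R5020 PR, lowest and highest.

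**Figure D4:**
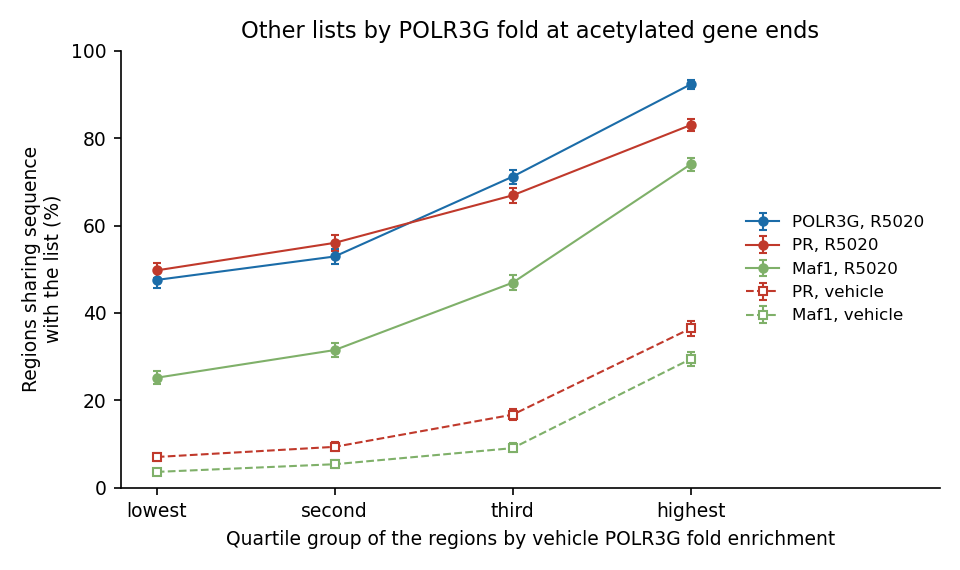
Share of POLR3G regions at acetylated gene ends that shared sequence with each list (vertical axis, %, 95% Wilson intervals) by quartile group of vehicle POLR3G fold (horizontal axis, 3017 regions each). All 5 lines go up from the lowest to the highest quartile group, R5020 POLR3G from 47.6% to 92.3% and vehicle Maf1 from 3.65% to 29.5%.

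R5020 PR was also more frequent at regions where POLR3G was called again, 5829 of 7965 (73.2%), than where it was not, 1886 of 4103 (46.0%). The difference was 27.2 points (25.4 to 29.0), and within quartile groups of width it was 14.6, 18.9, 20.5 and 30.0 points.

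Acetylated gene ends with and without POLR3G were then compared from the H3K27Ac side. Of the vehicle H3K27Ac regions at gene ends without POLR3A, 10325 shared sequence with vehicle POLR3G and 7289 did not. Those with POLR3G were wider, with a median of 1897 against 652 bp, and had a higher H3K27Ac fold, 11.8 against 4.76. The share with POLR3G was 27.5%, 48.8%, 67.5% and 90.7% from the narrowest to the widest quartile group of H3K27Ac regions.

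R5020 PR was at 73.6% of these H3K27Ac regions with POLR3G and 41.4% of those without, 32.1 points apart. Within width quartile groups the difference was smaller, at -1.43 (-3.90 to 1.17), 10.4, 7.94 and 4.42 points, so in the narrowest quartile group it was not detectable. Vehicle PR was at 22.7% and 2.55%, with differences of 0.896, 6.21, 12.6 and 23.1 points within the groups and 41.2% against 18.1% in the widest. R5020 Maf1 was at 55.3% and 13.2%, and within these groups the differences were 7.01, 22.0, 29.7 and 37.9 points. For vehicle Maf1 the shares were 14.8% and 0.988%, with 26.5% against 3.42% in the widest quartile group.

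Promoter sequence was compared over 22012 RefSeq windows of 300 bases. Of these, 7488 met a POLR3G region of this class, 5342 met H3K27Ac but neither POLR3G nor POLR3A, and 7999 met none of the 3. Median GC content was 66.7%, 65.0% and 52.3%, and the median number of CpG dinucleotides was 28, 25 and 6, so both acetylated groups are CpG-rich. Motifs were counted on both strands, no motif contains another, and a match describes the letters only.

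Promoters with POLR3G held more GC boxes (GGGCGG), a site of Sp1-type factors, than acetylated promoters without it, 76.5% against 65.0%, with 56.3% over all windows. The ETS core (CCGGAAG) was in 21.9% against 14.5% (12.8% of all), the CCAAT box, bound by NF-Y, in 37.0% against 30.1% (34.7% of all), and the YY1 core (AAGATGG) in 8.89% against 5.30% (6.06% of all). The BANP core (TCTCGCGA) was in 231 of 7488 windows (3.08%) against 64 of 5342 (1.56% of all). Within 4 bands of GC content (below 50%, 50 to 60%, 60 to 70%, and above) the differences for the GC box, ETS, CCAAT and YY1 had intervals above 0 in every band. The lowest bound over the 4 bands was 0.241 points for the GC box, 2.39 points for ETS, 2.89 points for CCAAT and 1.16 points for YY1. For BANP the interval included 0 in the highest band. Windows were not split by H3K27Ac strength, which differed between gene ends with and without POLR3G (median width 1897 against 652 bp, fold 11.8 against 4.76). Whether the motif differences go with POLR3G or with acetylation was not tested.

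The remaining motifs differed less. The NRF1 core (GCGCATGC) was in 5.64% against 4.66% (3.71% of all), the E-box (CACGTG) in 10.7% against 9.00% (8.32% of all), the cyclic AMP response element (TGACGTCA) in 3.30% against 2.56% (2.25% of all) and the ZNF143 core (ACTACAATT) in 0.641% against 0.487% (0.377% of all). The B box core of tRNA genes (GGTTCGA), part of the internal promoter that TFIIIC reads, was in 1.32% against 1.07% (0.949% of all), with overlapping intervals. The TATA box (TATAAA) was in 4.38% against 5.73% (9.49% of all), but within GC bands it was not fewer at promoters with POLR3G. Below 50% GC it was in 29.9% against 22.4% (difference 0.742 to 14.6 points), and in the other 3 bands the interval included 0. The hormone response element core (ACANNNTGT) was in 1.72% against 3.16% (3.98% of all), fewer at promoters with POLR3G, but within GC bands the interval of the difference lay below 0 at 50 to 60% GC and included 0 in the other 3 bands.

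**Figure D5:**
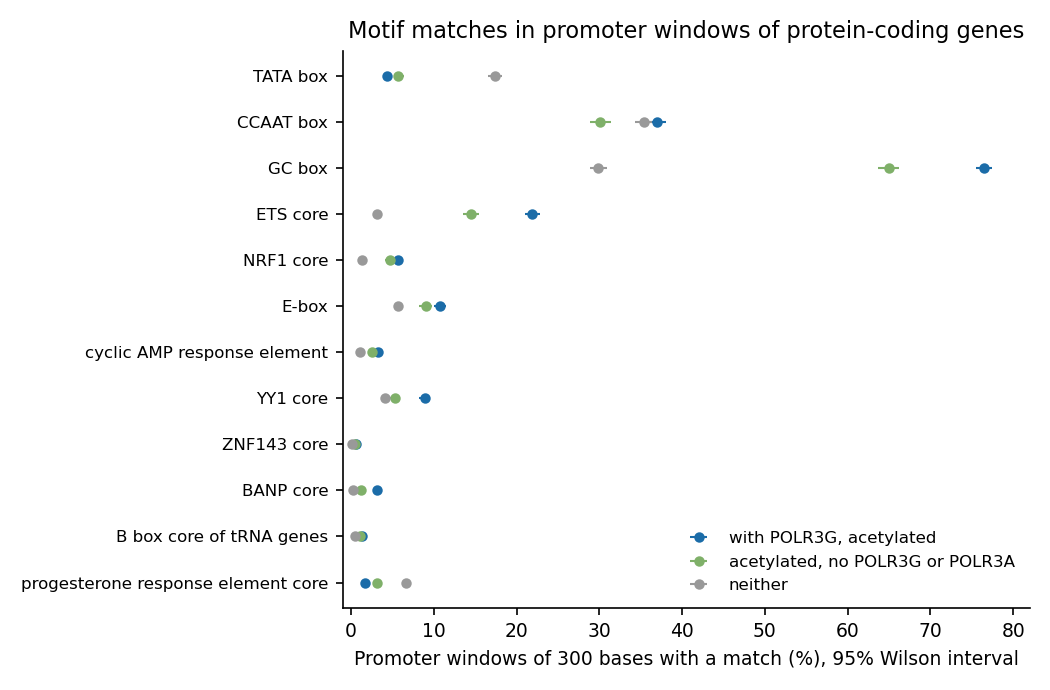
Share of 300-base promoter windows with at least 1 match to each motif (horizontal axis, %, 95% Wilson intervals), for windows with a POLR3G region of this class (blue, 7488), acetylated windows without POLR3G or POLR3A (green, 5342) and windows with neither (grey, 7999). GC box, ETS core and YY1 core lie highest in the blue group, and the TATA box and hormone response element core lie highest in the grey group.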

How the data were processed

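ChIP-seq was done in T47D cells with 8 antibodies and input, after 1 h of vehicle or R5020. Reads were processed with cutadapt, Bowtie2 and MACS2 on hg38, per the submitters' processing notes. Settings, controls and how the 3 libraries of a group were combined are not given in the sources used here. Each of the 16 deposited lists gives, per region, a display score, the authors' fold (a ratio of signal over background), and the authors' -log10 q. It also gives the distance of the summit from the region's start, likewise as deposited. Fold and -log10 q were used to describe, rank or filter regions within 1 list. Depth is unknown, since lists hold no read counts. No column belonged to a sample of another series (0 columns).

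The members, gene lists and motifs were chosen with earlier results of these data known. Samples were grouped by title. Regions on chromosomes 1 to 22 and X were intersected by at least 1 bp. Gene ends came from the RefSeq table of GRCh38.p14, with 19821 protein-coding genes used of 19974. The 153 others are genes of scaffolds and patches listed under a chromosome's name. Strand, promoter sequences and motif counts came from the RefSeq promoter table, with a window for 7273 of the 8920 genes with a region. Named loci are the 12 regions with the highest -log10 q, plus the highest 3 with PR or Maf1 in both treatments or R5020 alone, with vehicle Brf1, with POLR3GL, or missing from the R5020 POLR3G or H3K27Ac list, and 5 with vehicle POLR3C. From each gene list up to 6 genes with and 6 without a region could be named. Printed promoters are those at starts among the 12, 1 gene per region, with chromosome 8 left out. Shares have 95% Wilson intervals and differences have Newcombe intervals, and no test was possible. The overlap and interval code was checked on simulated data. Python 3.11.15, numpy 2.4.6, pandas 2.3.3, scipy 1.17.1 and matplotlib 3.10.9 were used. Alternatives covered the q and fold minimum, the distance to gene ends, gene starts alone, the overlap rule and equal list lengths.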

Additional observations from a re-analysis of the deposited data

How the results depend on the processing

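No paired analysis was possible because there is 1 list for the 3 replicates of a group and it carries no replicate number, and no replicate could be left out for the same reason. The order of the treatments for PR and Maf1 turned with list length. With equal numbers of top regions, R5020 PR was at 4.89%, R5020 Maf1 at 4.21% and R5020 H3K27Ac at 93.97% of the regions. The vehicle shares and R5020 POLR3G did not move in that setting, since the shorter list of each pair was kept whole.

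A -log10 q of at least 5 in every list left 5359 regions and 5479 genes, with 88.2% at a gene start. It gave 53.6% for R5020 POLR3G, 97.5% for R5020 H3K27Ac, 18.4% and 71.4% for PR (vehicle, then R5020), 14.1% and 51.3% for Maf1 and 2.35% for vehicle POLR3C. A POLR3G fold of at least 3 left 7085 regions, 85.9% at a start, with 78.3% for R5020 POLR3G, 96.9% for H3K27Ac, 24.4% and 72.5% for PR, 17.3% and 56.6% for Maf1 and 2.05% for POLR3C.

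Within 500 bp of a gene end, 85.6% were at a start, with 70.4% for R5020 POLR3G, 96.5% for H3K27Ac, 21.0% and 70.6% for PR, 14.3% and 52.3% for Maf1 and 1.86% for POLR3C. Within 5 kb there were 19592 regions, 82.3% at a start, with 58.7% for R5020 POLR3G, 90.6% for H3K27Ac, 12.5% and 52.5% for PR, 8.21% and 32.4% for Maf1 and 0.985% for POLR3C. With gene starts alone the shares were 66.9% for R5020 POLR3G, 97.5% for H3K27Ac, 19.3% and 69.4% for PR, 48.0% for R5020 Maf1 and 1.83% for POLR3C.

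Asking for 50% of both regions to be shared gave 28.0% for R5020 POLR3G, 18.1% for H3K27Ac, 2.96% and 21.3% for PR, 1.37% and 12.3% for Maf1 and 0.456% for POLR3C. Asking for the POLR3G summit inside the other region gave 47.8%, 78.1%, 10.4% and 44.9%, 6.78% and 29.2%, and 0.986% in the same order.

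Added after the data were seen, regions of at most 1000 bp were 85.8% at a start, with 53.9% for R5020 POLR3G, 93.8% for H3K27Ac, 10.7% and 57.2% for PR, 5.30% and 33.5% for Maf1 and 0.916% for POLR3C. Also added later, including the genes of scaffolds and patches gave 12079 regions and moved no other value beyond its interval. The cause of these differences was not tested. R5020 PR and Maf1 shares were above the vehicle shares in every setting listed here but equal numbers of top regions.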

Other observations

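POLR3G was unevenly spread over chromosomes relative to acetylation. Among protein-coding genes with an acetylated end, 81.5% on chromosome 17 (735 of 902), 81.2% on chromosome 20 and 76.5% on chromosome 19 had a POLR3G region without POLR3A at an end. The share was 43.1% on chromosome 18, 35.1% on chromosome 13 and 25.8% on X (105 of 407, interval 21.8 to 30.3%). R5020 PR followed another order, at 47.8% of the regions on chromosome 19 and 82.5% of the 80 on chromosome 13.

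Noncoding genes overlapped some of the same regions. The regions of this class covered part of 1594 of 17904 lncRNA genes, 113 of 1911 microRNA genes and 83 of 1190 snoRNA genes. Any vehicle POLR3G region overlapped 3298, 244 and 143 of these genes, in the same order. No snoRNA gene overlapped a vehicle POLR3A region, and 5 microRNA genes and 88 lncRNA genes did. Acetylated promoter windows below 50% GC held such a POLR3G region in 26.9% of cases (221 of 821), against 49.2% at 50 to 60%, 59.4% at 60 to 70% and 55.4% above. Over the 7965 regions called in both treatments, the Spearman correlation of the POLR3G fold percentile between the vehicle and R5020 lists was 0.38, a description across regions.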
